A study of Mus musculus with 15 samples.

Results

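The genes described here are the hepcidin and iron handling genes of the mouse liver: Hamp, Hamp2, Tfrc, Tfr2, Trf, Slc40a1, Bmp6, Id1, Fth1 and Ftl1. They were chosen by name, with earlier results of these data known, so shares set beside those of all genes are descriptions. All 10 were found among the 21702 protein-coding genes of the deposited count table. They were also among the 12172 genes with enough counts to be tested. RNA was sequenced from 15 whole liver samples in 5 groups of 3, all from wild-type C57BL/6 female mice (C57BL/6N per the methods) that had received adeno-associated virus 8 (AAV8) by tail vein injection, so that no group was free of virus. AAV8-null, the empty control vector, was given to non-pregnant mice (null NP) and to mice examined at 8 or 16 days post-coitum (null 8 dpc and null 16 dpc). AAV8-p21, in which the promoter of thyroxine-binding globulin drives mouse p21 cDNA in hepatocytes, was given to the mice of the remaining groups (p21 8 dpc and p21 16 dpc). The mice were virgin when they entered the study and, per the methods, were given virus at least a week before mating. There was no non-pregnant group with AAV8-p21. The study asked what pregnancy and the block of hepatocyte division change in the maternal liver, and these comparisons are asked here of the iron genes.

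Hepcidin is a small peptide hormone made mainly by hepatocytes. It binds ferroportin, the iron exporter encoded by Slc40a1, and causes its degradation, so that low hepcidin lets more iron pass from the gut, from macrophages and from hepatocytes into the blood. Bmp6, secreted by liver sinusoidal endothelial cells when iron is plentiful, acts on hepatocyte receptors and SMAD proteins to raise transcription of Hamp and of Id1, and inflammation raises Hamp through interleukin-6 and STAT3. Transferrin, encoded by Trf, carries iron in plasma, Tfrc (transferrin receptor 1) takes it into cells, and Tfr2 is a second, hepatocyte receptor that helps to sense it. Fth1 and Ftl1 encode the subunits of ferritin, the shell that stores iron. Mice carry a second hepcidin gene, Hamp2, whose peptide is not thought to act on ferroportin. Pregnancy raises the demand for iron, and hepcidin is known to be low in late pregnancy.

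The sequences of the pair of hepcidin promoters are shown because Hamp passed in 2 of the comparisons between stages and its neighbour Hamp2 in none. Whether the changes of the 2 genes differed was not tested, nor was any part of the promoters in them. Hamp lies at chr7:30942368-30944032 and Hamp2 at chr7:30922372-30924681, both on the minus strand of GRCm38. The 250 bases before each RefSeq start site (build GRCm38.p6, read on the minus strand) are printed 5′ to 3′. Capitals mark the core of the BMP-responsive element, GGCGCC, and a STAT-type motif, TTCNNNGAA, with the aligned bases of Hamp2.
Hamp promoter, chr7:30944030-30944279: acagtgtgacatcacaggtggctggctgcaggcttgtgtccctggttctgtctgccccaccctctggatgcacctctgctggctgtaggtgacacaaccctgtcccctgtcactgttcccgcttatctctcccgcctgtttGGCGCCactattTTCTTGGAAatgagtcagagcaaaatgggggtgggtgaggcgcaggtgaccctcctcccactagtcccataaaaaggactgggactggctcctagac
Hamp2 promoter, chr7:30924182-30924431: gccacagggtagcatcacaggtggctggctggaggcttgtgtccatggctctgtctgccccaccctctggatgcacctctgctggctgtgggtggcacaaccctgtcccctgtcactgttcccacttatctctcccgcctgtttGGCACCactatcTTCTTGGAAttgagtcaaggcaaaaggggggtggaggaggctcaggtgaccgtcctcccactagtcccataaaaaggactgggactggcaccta
Over 247 aligned bases the promoters were identical at 227 (91.9%). In Hamp the GGCGCC core began 109 bases before the start site. The aligned bases of Hamp2, 106 before its start, carried the substitution G4A, counted from 1 at the 5′ end of the core. The STAT-type motif read TTCTTGGAA in both genes, 97 bases before the start of Hamp and 94 before that of Hamp2. Searched on both strands over windows of this length, GGCGCC was present in 9.59% of 32851 RefSeq promoters, TTCNNNGAA in 7.02% and the E-box CACGTG in 6.02%. These matches describe letters and not measured binding. Of the 10 genes, 7 had a promoter entry. One of the entries of Tfrc held GGCGCC, 89 bases before its start, and the entry of Bmp6 held CACGTG, 127 bases before its start.

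Iron-responsive elements are hairpins in messenger RNA that iron regulatory proteins bind when iron is scarce. In a 5′ UTR they block translation and in the 3′ UTR of Tfrc they stabilise the transcript. They are shown because they separate the genes whose mRNA level iron can set through RNA stability from those whose translation it sets, which RNA-seq does not read. Each element below has 27 bases on the transcript strand of GRCm38, with the 6-base loop CAGTGN in capitals, where N was A, C or T. The search required all 5 upper-stem pairs and at least 4 of 5 lower-stem pairs around an unpaired C.
Tfrc 3′ UTR, chr16:32631220-32631246, plus strand: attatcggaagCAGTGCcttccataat
Tfrc 3′ UTR, chr16:32631599-32631625, plus strand: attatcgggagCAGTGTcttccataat
Tfrc 3′ UTR, chr16:32631664-32631690, plus strand: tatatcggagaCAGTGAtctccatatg
Tfrc 3′ UTR, chr16:32631711-32631737, plus strand: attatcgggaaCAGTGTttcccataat
Slc40a1 5′ UTR, chr1:45925466-45925492, minus strand: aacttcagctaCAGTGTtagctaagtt
Fth1 5′ UTR, chr19:9982733-9982759, plus strand: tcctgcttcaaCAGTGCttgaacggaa
Ftl1 5′ UTR, chr7:45459780-45459806, minus strand: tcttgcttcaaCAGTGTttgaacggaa
The same search found an element in 21 of 22500 principal transcripts (0.0933%). In this search Tfrc had 4, while Slc40a1, Fth1 and Ftl1 had 1 each, and elements whose stems pair less fully would be missed. No element was found in Hamp, Hamp2, Tfr2, Trf, Bmp6 or Id1.

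Each library held between 12280709 and 17615185 counts. Levels are given as CPM, counts scaled to 1000000 counts of tested genes per library after TMM scaling, which corrects for a few very abundant transcripts. Albumin took between 7.9% and 27.83% of all counts, most in the 16 dpc libraries. Of the 15 libraries, 7 were nearest in expression to a library of another group, and 5 of these stood apart by a correlation gap over 0.005: null NP replicate 1, null 8 dpc replicate 3, null 16 dpc replicate 3, p21 8 dpc replicate 3 and p21 16 dpc library c. Values without these 5 libraries are given beside the results of the 10 genes and the other named genes whose call they change. Leaving them out also set most compared groups apart in their clock genes, as described below. The p21 transgene was read through Cdkn1a, which encodes p21: it lay between 3.29 and 127 CPM in the null libraries and between 347 and 1664 CPM in the p21 libraries, with no overlap. Its difference was 4.40 (log2) at 8 dpc and 3.83 at 16 dpc and did not pass the test (adjusted p = 0.0873 and 0.0619, edgeR), although it passed under the DESeq2 test of all libraries (adjusted p = 2.45e-05 and 0.000241) and without the 5 libraries that stood apart (adjusted p = 0.00476 and 0.00525). A gene is said to have passed where its adjusted p in edgeR's quasi-likelihood test, over all 12172 genes, was under 0.05, and to have risen or fallen only then. Nothing in the labels ties replicates to separate litters or batches, and p-values measure the spread between these samples. In whole liver, fewer cells of a type and less RNA per cell cannot be told apart.

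In pregnancy the liver hormone and the plasma carrier of iron moved in opposite directions, and the main cellular receptor rose. Between null NP and null 16 dpc, Hamp fell 6.10-fold while Tfrc rose 4.19-fold and Trf rose 2.91-fold. The other 7 genes did not pass. Thus 3 of the 10 genes passed, where 6.52% of all tested genes did (3.71% higher and 2.82% lower). The range of the null NP libraries and that of the null 16 dpc libraries did not overlap for 4 of the 10 genes, the same 3 and Tfr2, where 24.6% of all genes had no overlap. The median log2 difference was 0.138 over the 10 genes and -0.0279 over all genes. At 8 dpc no gene of the series passed against null NP (0.0% of 12172 by edgeR, with 803 genes at an unadjusted p under 0.05, and 66 passing by the DESeq2 test of all libraries, 1850 with voom sample weights, 1027 without the 5 libraries that stood apart and 92 without null 8 dpc replicate 3 alone), and the 10 genes differed by between -1.004 for Bmp6 and 0.25 for Tfr2. From null 8 dpc to null 16 dpc 2 of the 10 genes passed, Tfrc and Trf, where 6.87% of all genes did, and 4 had no overlap, where 25.4% of all genes had none. From p21 8 dpc to p21 16 dpc 2 passed, Hamp and Trf, where 3.32% of all genes did, and these 2 had no overlap, where 22.9% of all genes had none. The comparisons of null 16 dpc share its 3 libraries and are not independent of each other.

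**Figure D1:**
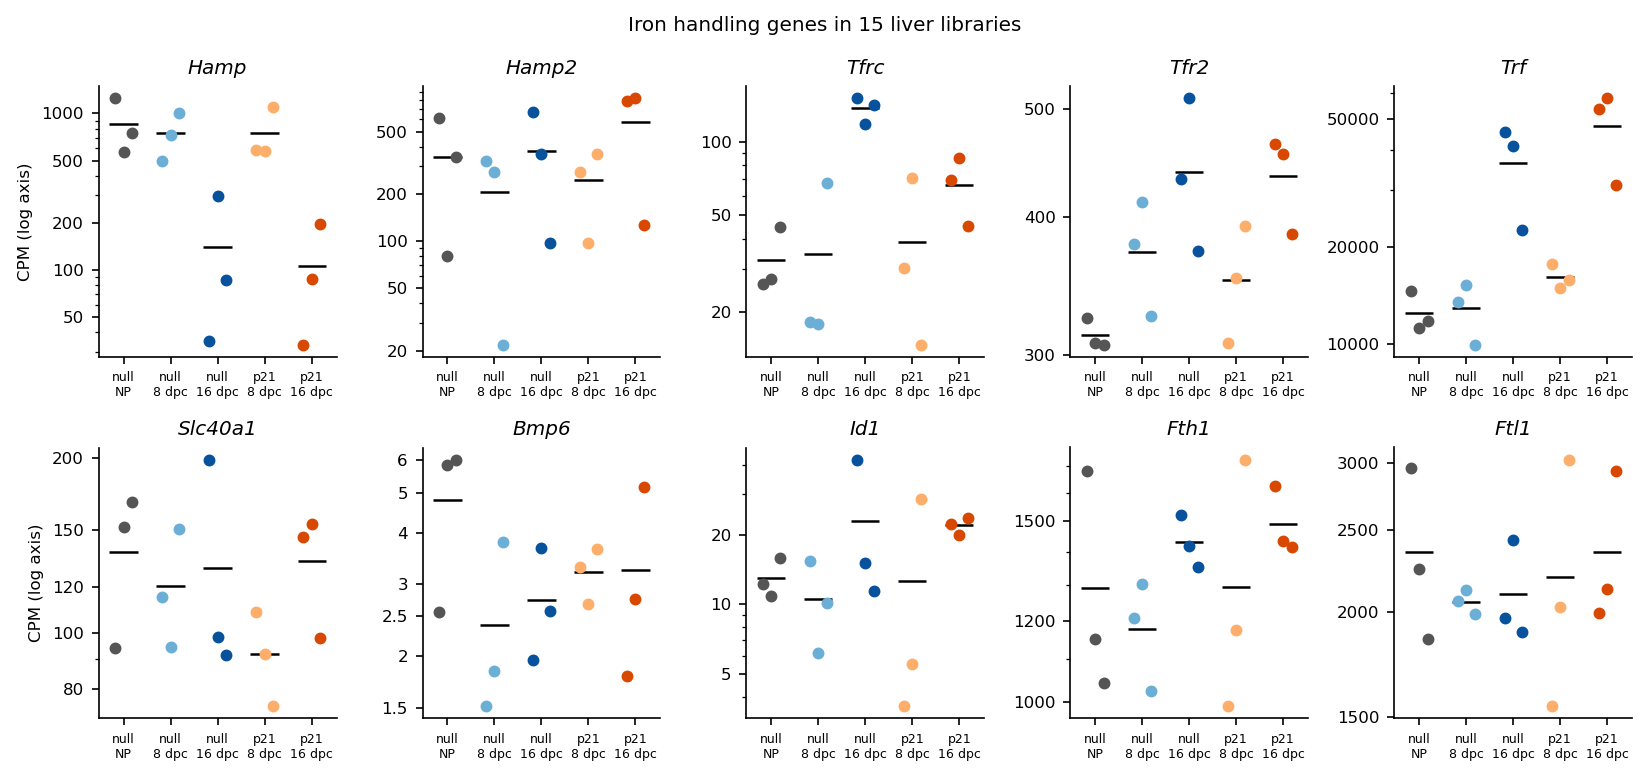
Level of each of the 10 genes in every library, in CPM on a log axis, by group. Points are libraries and bars are group means. Hamp lies lowest in the 16 dpc groups, at 33.3 to 299 CPM, and Trf highest there, at 22635 to 57851 CPM.

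Hamp (ENSMUSG00000050440), the hormone gene itself, stood at 1250.0, 564 and 747 CPM in the null NP libraries. It stood at 494, 733 and 1007 CPM at null 8 dpc and at 34.9, 299 and 85.9 CPM at null 16 dpc. With AAV8-p21 it stood at 584, 576 and 1102 CPM at 8 dpc, against 33.3, 86.9 and 196 CPM at 16 dpc. Every 16 dpc library lay below every NP and every 8 dpc library, whichever virus was given. Among the 16 dpc libraries themselves the level varied 8.55-fold with AAV8-null and 5.89-fold with AAV8-p21, against 2.22-fold at null NP. The mean fell from 854 ± 355 CPM (SD, n = 3) at null NP to 140 ± 140 CPM (n = 3) at null 16 dpc, a log2 change of -2.61 (SE 0.71, adjusted p = 0.0425). In the p21 libraries it fell from 754 ± 302 CPM at 8 dpc to 105 ± 83.0 CPM at 16 dpc, a log2 change of -2.84 (SE 0.72, adjusted p = 0.0453). Between null 8 dpc and null 16 dpc the log2 difference was -2.41 and just missed the threshold (adjusted p = 0.0554).

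These calls on Hamp were close to the threshold, and the NP call was also lost in edgeR with these groups alone (adjusted p = 0.0948). The NP call was lost when null NP replicate 1, 2 or 3 or null 16 dpc replicate 1 or 3 was left out (adjusted p from 0.0657 to 0.144), and without the 5 libraries that stood apart (log2 difference -1.98, adjusted p = 0.125). The p21 call was lost when p21 8 dpc replicate 1, 2 or 3 or p21 16 dpc library a or b was left out (adjusted p from 0.0798 to 0.163). The difference from null 8 dpc passed without null 16 dpc replicate 2, the highest Hamp library of that group (log2 difference -3.63, adjusted p = 0.0162). It also passed with upper quartile scaling (0.0388), with no filter on low counts (0.0439), in the DESeq2 test of all libraries (0.0209), with voom (0.00566) and in a fit of the 12 libraries other than those of p21 16 dpc (0.0440). Without null 16 dpc replicate 2 the difference from null NP was -3.82 (adjusted p = 0.0102), and without p21 16 dpc library c, the highest of its group, the p21 difference was -3.65 (adjusted p = 0.0324). The direction did not change in any of these.

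The neighbouring Hamp2 (ENSMUSG00000056978) did not pass in any comparison, and whether its change differed from that of Hamp was not tested. It stood at 607, 80.2 and 342 CPM at null NP, at 323, 276 and 21.8 CPM at null 8 dpc and at 668, 360 and 96.7 CPM at null 16 dpc. With AAV8-p21 it stood at 278, 97.5 and 360 CPM at 8 dpc, against 782, 816 and 127 CPM at 16 dpc. Every group spanned a wide range, from 3.70-fold at p21 8 dpc to 14.8-fold at null 8 dpc, and all groups overlapped. The log2 difference between null 16 dpc and null NP was 0.13 (SE 0.94, adjusted p = 0.960), and that between p21 16 dpc and p21 8 dpc was 1.23 (adjusted p = 0.581).

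The share of Hamp2 in the counts of both hepcidin genes is given as a description, with no test. It was 32.7%, 12.4% and 31.4% at null NP, 39.5%, 27.3% and 2.12% at null 8 dpc and 95.0%, 54.6% and 53.0% at null 16 dpc. With AAV8-p21 it was 32.2%, 14.5% and 24.6% at 8 dpc and 95.9%, 90.4% and 39.4% at 16 dpc. The highest shares, over 90%, were all in 16 dpc libraries, though p21 16 dpc library c lay below null 8 dpc replicate 1. Summed over both genes, the level was 1857, 645 and 1089 CPM at null NP and 703, 658 and 183 CPM at null 16 dpc, and these ranges overlapped. Fitted as 1 gene, the pair differed by -1.22 (log2, adjusted p = 0.185) between null 16 dpc and null NP and by -0.55 (adjusted p = 0.649) between p21 16 dpc and p21 8 dpc. The principal transcripts of the pair were identical at 389 of 410 aligned bases (94.9%), and the counts come from uniquely mapped reads. How reads of 1 gene might be lost or assigned to the other was not tested, and each gene's level is uncertain to that extent.

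**Figure D2:**
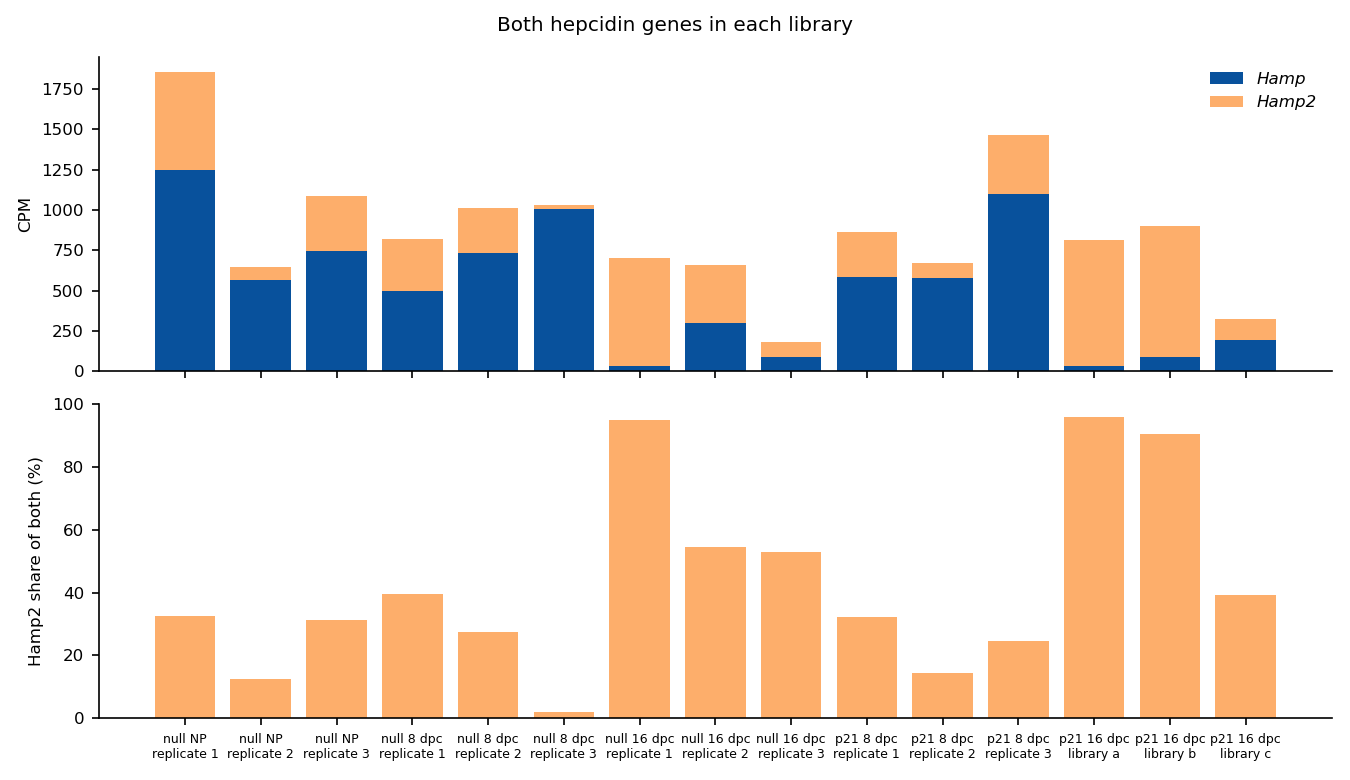
Upper bars show Hamp and Hamp2 stacked, in CPM, for each of the 15 libraries, and lower bars show the share of Hamp2 in their sum, in percent. At 16 dpc the share of Hamp2 ranged from 39.4% to 95.9%, against 2.12% to 39.5% at NP and 8 dpc.

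Of the signals upstream of Hamp, Bmp6 (ENSMUSG00000039004, chr13:38345107-38500302, plus strand), the endothelial ligand, was low throughout. It stood at 2.56, 5.85 and 6.01 CPM at null NP, 1.51, 1.85 and 3.80 CPM at null 8 dpc and 1.96, 3.67 and 2.58 CPM at null 16 dpc, and between 1.79 and 5.17 CPM in the p21 libraries. The ranges of the groups overlapped. Its log2 difference was -1.004 between null 8 dpc and null NP (unadjusted p = 0.0381, adjusted p = 0.668) and -0.81 (SE 0.45, adjusted p = 0.319) between null 16 dpc and null NP. The former passed with voom sample weights (-1.64, adjusted p = 0.00281) and without the 5 libraries that stood apart (-1.81, adjusted p = 0.0141), and the latter with voom (adjusted p = 0.0442). The summed level of 12 sinusoidal endothelial markers, the cells that make Bmp6, was 247 to 432 CPM at null NP, 182 to 242 CPM at null 8 dpc and 307 to 396 CPM at null 16 dpc, and its part in the level of Bmp6 was not tested.

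Id1 (ENSMUSG00000042745, chr2:152736251-152737410, plus strand), a transcriptional target of BMP and SMAD signalling, did not pass in any comparison. It stood at 12.3, 10.8 and 15.9 CPM at null NP, 15.4, 6.19 and 10.1 CPM at null 8 dpc and 42.0, 15.1 and 11.4 CPM at null 16 dpc. With AAV8-p21 it stood at 3.65, 5.54 and 28.6 CPM at 8 dpc, against 22.2, 19.9 and 23.6 CPM at 16 dpc. One library at 8 dpc, p21 replicate 3, stood above all 3 of the p21 16 dpc libraries and the other two far below. The log2 difference was 0.81 (SE 0.63, adjusted p = 0.498) between null 16 dpc and null NP, falling to 0.029 without null 16 dpc replicate 1, and 0.81 (adjusted p = 0.583) between p21 16 dpc and p21 8 dpc. Without p21 8 dpc replicate 3 the latter became 2.27 and passed (adjusted p = 0.0319), as it did without the 5 libraries that stood apart (2.19, adjusted p = 0.0341) and with voom (1.94, adjusted p = 0.0131).

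The receptor Tfrc (ENSMUSG00000022797, chr16:32608920-32632794, plus strand) had its most even and its highest levels at null 16 dpc. It stood at 26.1, 27.2 and 44.8 CPM at null NP, at 18.3, 17.8 and 67.7 CPM at null 8 dpc and at 151, 119 and 142 CPM at null 16 dpc. With AAV8-p21 it stood at 30.4, 71.1 and 14.7 CPM at 8 dpc, against 69.4, 85.6 and 44.9 CPM at 16 dpc. The null 16 dpc libraries lay above every other library of the series. The mean rose from 32.7 ± 10.5 CPM (SD, n = 3) at null NP and 34.6 ± 28.7 CPM at null 8 dpc to 137 ± 16.5 CPM at null 16 dpc. The log2 difference was 2.07 (SE 0.56, adjusted p = 0.0401) from null NP and 1.98 (SE 0.56, adjusted p = 0.0467) from null 8 dpc. Leaving out any 1 of the 6 libraries lost the first call (adjusted p from 0.0728 to 0.142), and leaving out null 8 dpc replicate 1 or 2 or any null 16 dpc replicate lost the second (0.0813 to 0.186), as did edgeR with these groups alone (0.0826). Without null 8 dpc replicate 3 the second difference was 2.92 (adjusted p = 0.00564). Both passed without the 5 libraries that stood apart (log2 difference 1.91, adjusted p = 0.00984, and 2.89, adjusted p = 0.00159).

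With AAV8-p21 the level of Tfrc at 16 dpc was 66.6 ± 20.5 CPM, and the rise from 8 dpc did not pass (log2 difference 0.78, SE 0.54, adjusted p = 0.523). This difference was 1.56 without p21 8 dpc replicate 2 and 0.40 without replicate 3, and did not pass in either. Against null 16 dpc the log2 difference was -1.04 (SE 0.54, unadjusted p = 0.0756, adjusted p = 0.559). The ranges of these groups did not overlap, which was so for 1 of the 10 genes and for 13.7% of all genes. The difference passed in the DESeq2 test of these groups alone (adjusted p = 0.0329), and whether the rise with pregnancy differed between the viruses did not pass either (interaction -1.20, SE 0.76, adjusted p = 1.0). The interaction ran from -2.14, without null 8 dpc replicate 3, to -0.42, without p21 8 dpc replicate 2, and was -2.29 without the 5 libraries that stood apart (adjusted p = 0.160).

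Trf (ENSMUSG00000032554, chr9:103204001-103230444, minus strand), the plasma carrier made by hepatocytes, gave the firmest result. It stood at 14572, 11209 and 11767 CPM at null NP, at 13495, 15281 and 9960 CPM at null 8 dpc and at 45556, 41021 and 22635 CPM at null 16 dpc. With AAV8-p21 it stood at 17710, 14956 and 15839 CPM at 8 dpc, against 53612, 57851 and 31236 CPM at 16 dpc. Every 16 dpc library lay above every NP and 8 dpc library, and the lowest of each 16 dpc group was a library that stood apart. The log2 difference was 1.54 (SE 0.31, adjusted p = 0.00931) between null 16 dpc and null NP, 1.50 (adjusted p = 0.0119) between null 16 dpc and null 8 dpc and 1.56 (adjusted p = 0.0127) between p21 16 dpc and p21 8 dpc. The first of these passed in all 17 alternatives that were run. The second was lost without null 8 dpc replicate 1 (adjusted p = 0.0505) and in a fit of its groups alone (0.0775), and the third without p21 8 dpc replicate 2 (0.0660) or p21 16 dpc library b (0.0614). As a share of all counts, Trf ranged from 1.22% to 4.53%.

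Tfr2 (ENSMUSG00000029716, chr5:137569840-137587481, plus strand), the sensing receptor, varied within groups by at most 1.37-fold, less than Tfrc did in all but 1 group. It stood at 324, 308 and 307 CPM at null NP, 378, 412 and 326 CPM at null 8 dpc and 433, 512 and 373 CPM at null 16 dpc, and between 308 and 466 CPM in the p21 libraries. The null 16 dpc libraries all lay above the null NP libraries, with a log2 difference of 0.49 (SE 0.18) that did not pass (adjusted p = 0.124). It passed in the DESeq2 test of all libraries (adjusted p = 0.0351), with voom (0.0432) and without the 5 libraries that stood apart (0.0313).

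Slc40a1 (ENSMUSG00000025993, chr1:45908068-45926523, minus strand), the exporter on which hepcidin acts at the protein level, showed overlapping groups. It stood at 94.1, 152 and 168 CPM at null NP, 115, 94.6 and 151 CPM at null 8 dpc and 199, 98.3 and 91.5 CPM at null 16 dpc. With AAV8-p21 it stood at 109, 91.8 and 74.8 CPM at 8 dpc, against 146, 154 and 98.1 CPM at 16 dpc. The log2 difference between null 16 dpc and null NP was -0.09 (SE 0.31, adjusted p = 0.908). Macrophages also express this gene, and the summed level of 12 Kupffer cell markers ranged from 279 to 657 CPM over the libraries.

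The ferritin genes kept to a narrow range. Fth1 (ENSMUSG00000024661, chr19:9980598-9985098, plus strand), the heavy chain, stood at 1679, 1153 and 1043 CPM at null NP and at 1522, 1420 and 1352 CPM at null 16 dpc. Ftl1 (ENSMUSG00000050708, chr7:45457944-45459884, minus strand), the light chain, stood at 2963, 2247 and 1859 CPM at null NP and at 1969, 2433 and 1894 CPM at null 16 dpc. The log2 differences were 0.15 (SE 0.23, adjusted p = 0.769) for Fth1 and -0.17 (SE 0.26, adjusted p = 0.767) for Ftl1. In the remaining groups Fth1 lay between 990 and 1722 CPM and Ftl1 between 1547 and 3030 CPM. Of the groups compared, only null 8 dpc and null 16 dpc had ranges of Fth1 that did not overlap. Both genes have processed copies elsewhere in the genome, and the loss of reads that map to those copies was not tested. Per kilobase of transcript, the level of Fth1 was between 0.501 and 0.849 of that of Ftl1 in every library.

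Per kilobase of the principal transcript, the levels can be ordered within a group. At null NP the order of mean levels was Trf (4868 CPM per kb), Ftl1 (2434), Hamp (2082), Fth1 (1390), Hamp2 (784), Tfr2 (107), Slc40a1 (40.9), Id1 (13.9), Tfrc (6.69) and Bmp6 (1.34). At null 16 dpc it was Trf (14160), Ftl1 (2168), Fth1 (1541), Hamp2 (857), Hamp (341), Tfr2 (150), Slc40a1 (38.4), Tfrc (28.0), Id1 (24.4) and Bmp6 (0.761). Hamp thus moved from the third place to the fifth. Neighbours whose means differed by less than the larger of their SDs were Ftl1 and Hamp and then Hamp and Fth1 at null NP. At null 16 dpc they were Hamp2 and Hamp, Hamp and Tfr2, Slc40a1 and Tfrc, and Tfrc and Id1.

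**Figure D3:**
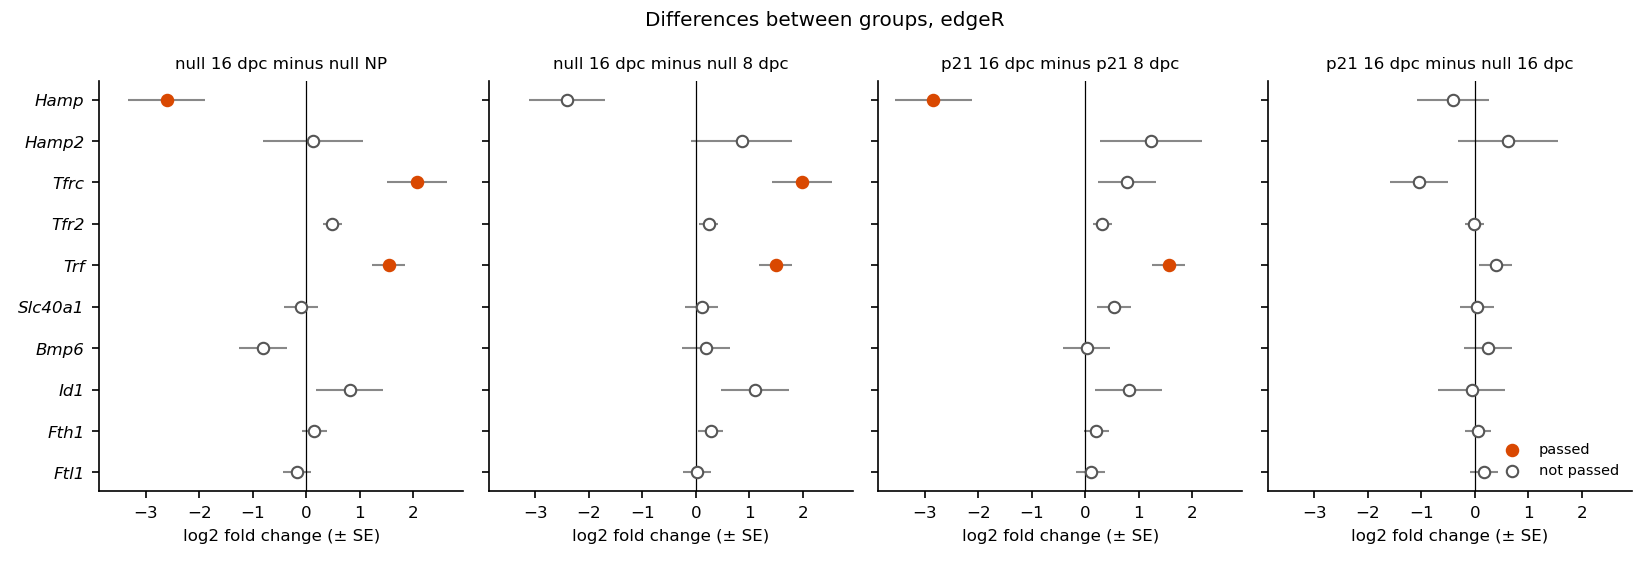
Log2 fold change of each gene, with its standard error as a bar, in 4 comparisons, filled where the adjusted p was under 0.05. Hamp lies furthest to the left and Tfrc or Trf furthest to the right in the 3 comparisons of pregnancy stages, and no gene passed between viruses at 16 dpc.

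Between the viruses no iron gene passed. At 16 dpc the log2 differences between p21 and null ran from -1.04 for Tfrc to 0.62 for Hamp2, and 0 of the 10 genes were under an unadjusted p of 0.05. Of all genes, 0.0739% passed (9 by edgeR, with 1189 at an unadjusted p under 0.05, and 133 by the DESeq2 test of all libraries). Hamp differed by -0.41 (adjusted p = 0.879), with a sign that turned without null 16 dpc replicate 2 or p21 16 dpc library a, and Trf by 0.39 (adjusted p = 0.713). At 8 dpc the differences ran from -0.39 for Slc40a1 to 0.42 for Bmp6 (lowest unadjusted p = 0.237), where 0.0246% of all genes passed (3 by edgeR, 28 by the DESeq2 test of all libraries). In the test of whether the change from 8 to 16 dpc differed between the viruses, the 10 genes ran from -1.20 for Tfrc to 0.43 for Slc40a1 (lowest unadjusted p = 0.138), and no gene of the series passed (0.0% by edgeR, with 376 at an unadjusted p under 0.05, and 0 by the DESeq2 test of all libraries). A p that missed the threshold does not show that the levels were equal.

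Lists of related genes place the 10 genes among their pathways, and counts are given beside the medians because no test was made of a list. These lists too were chosen with earlier results of these data known. In the BMP and SMAD pathway that controls hepcidin, 2 of 24 tested genes rose and 1 fell between null NP and null 16 dpc, with a median log2 difference of 0.111 (-0.0279 over all genes). In this comparison 6.52% of all genes passed, and the shares of the lists below are to be read against it. Smad6, an inhibitory SMAD, rose by 1.12 (adjusted p = 0.0125) from 5.00 ± 1.12 to 10.9 ± 2.52 CPM (SD, n = 3). Smad7, the other inhibitory SMAD and like Smad6 a target of the pathway, fell by 1.31 on the log2 scale (adjusted p = 0.00860) from 8.39 ± 1.66 to 3.38 ± 0.620 CPM. The 2 inhibitors thus moved in opposite directions. The call of Smad7 held in all 17 alternatives, and that of Smad6 was lost without null NP replicate 3 (adjusted p = 0.0637). Smad6 also rose between null 8 dpc and null 16 dpc (1.62, adjusted p = 0.00144) and between p21 8 dpc and p21 16 dpc (0.95, adjusted p = 0.0453), where each omission of 1 library lost the call (0.0852 to 0.159), as did that of the 5 libraries that stood apart (0.0965). Bmper, a secreted BMP binding protein, rose by 2.80 (adjusted p = 0.0250), a call that was lost without null NP replicate 1, 2 or 3 or null 16 dpc replicate 2 (highest adjusted p = 0.146, without the last) and without the 5 libraries that stood apart (0.0593).

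In the interleukin-6 and STAT3 pathway 2 of 13 tested genes rose and none fell at null 16 dpc against null NP (median 0.0397). Stat3, the transcription factor of the pathway, rose by 1.52 (adjusted p = 0.00142) from 69.2 ± 5.67 to 199 ± 65.4 CPM and passed in all 17 alternatives. Socs3, its feedback inhibitor, rose by 2.76 (adjusted p = 0.0165) from 4.01 ± 0.817 to 27.2 ± 21.5 CPM, and was lost without null NP replicate 2 or 3 or null 16 dpc replicate 3 (adjusted p up to 0.0773). Hamp, which this pathway is known to raise, fell in the same libraries. RNA levels do not measure the activity of the pathway, and its part in the level of Hamp was not tested. In the p21 libraries 1 of the 13 genes passed between 8 and 16 dpc, where 3.32% of all genes did: Il6ra, the receptor, which rose by 1.64 (adjusted p = 0.0119) and was lost without p21 8 dpc replicate 1 or 2 (adjusted p up to 0.0669).

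Among 24 further tested genes of iron uptake, storage and export, 3 rose and 2 fell at null 16 dpc against null NP (median 0.0361). Cp, which encodes ceruloplasmin, the plasma ferroxidase that oxidises iron for loading onto transferrin, rose 7.70-fold (log2 2.95, SE 0.23, adjusted p = 5.11e-06). Its mean was 999 ± 132 CPM at null NP, 1179 ± 132 CPM at null 8 dpc and 7692 ± 1804 CPM at null 16 dpc, and 1293 ± 106 and 7770 ± 869 CPM at p21 8 and 16 dpc. It rose likewise between null 8 dpc and null 16 dpc (2.71, adjusted p = 1.2e-05) and between p21 8 dpc and p21 16 dpc (2.59, adjusted p = 2.04e-05), and passed in every alternative run for each. Hpx, which encodes the heme carrier hemopexin, rose by 1.37 (adjusted p = 0.00519) at null 16 dpc against null NP, from 3061 ± 488 to 7921 ± 767 CPM, and passed in all 17 alternatives. Slc39a14, an importer of iron not bound to transferrin, rose by 1.05 (adjusted p = 0.0190, highest 0.0817 when 1 library was left out and 0.0898 without the 5 libraries that stood apart). Steap2, a metalloreductase, fell by 1.48 on the log2 scale (adjusted p = 0.0322, highest 0.125). Between p21 8 dpc and p21 16 dpc Hpx rose by 1.09 (adjusted p = 0.0288), a call lost in 4 of 6 omissions of 1 library (adjusted p up to 0.146), with upper quartile scaling and in edgeR with these groups alone.

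In heme synthesis, transport and breakdown 1 of 22 genes rose and 1 fell at null 16 dpc against null NP, the exporter Abcg2 (0.80, adjusted p = 0.0421) and the biliverdin reductase Blvrb (-0.93, adjusted p = 0.0329), and each was lost in 5 of 6 omissions of 1 library and without the 5 libraries that stood apart (0.0587 and 0.0555). These 2 of 22 genes lie near the 6.52% of all genes. In iron-sulfur cluster assembly 1 of 21 passed, Fdxr, a mitochondrial reductase that supplies electrons to the assembly, which fell by 1.39 on the log2 scale (adjusted p = 0.0106) from 14.5 ± 1.22 to 5.52 ± 1.70 CPM and passed in all 17 alternatives. That 1 of 21 is likewise near the share of all genes. Of 10 tested NRF2 targets, genes of a stress factor that also drives ferritin, 1 fell, Gsta4 (-1.93, adjusted p = 0.0273, highest 0.101 when 1 library was left out). In edgeR with null NP and null 16 dpc alone, the calls of Smad6, Bmper, Slc39a14, Abcg2 and Blvrb were lost as well. Between null 8 dpc and null 16 dpc, where 6.87% of all genes passed, 2 of the 24 iron genes rose, Cp and Hpx, and Steap3, an endosomal reductase of iron, fell by 1.13 on the log2 scale (adjusted p = 0.0121, up to 0.0587 when 1 library was left out). Hpx differed by 0.91 (adjusted p = 0.0433) and was lost in 12 of 17 alternatives, that without the 5 libraries that stood apart among them (0.0526). Abcg2 (0.82, adjusted p = 0.0392, lost in 6 of 17) was the 1 of 22 heme genes that passed, and Fdxr (-1.48, adjusted p = 0.00840, lost in none) the 1 of 21 in iron-sulfur assembly. Of the 10 NRF2 targets 2 fell, Gsta4 (-1.75, adjusted p = 0.0413, lost in 5 of 17) and the quinone reductase Nqo1 (-0.86, adjusted p = 0.0164, lost in 3 of 17). None of the 13 genes of the interleukin-6 and STAT3 pathway passed in this comparison. Between p21 8 dpc and p21 16 dpc, where 3.32% of all genes passed, Abcg2 (0.89, adjusted p = 0.0398, lost in 8 of 15 alternatives, and at 0.122 without the 5 libraries that stood apart) was the 1 heme gene and malic enzyme Me1 (-0.81, adjusted p = 0.0465, lost in 9 of 15) the 1 NRF2 target that passed, and no iron-sulfur gene did.

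None of 9 hypoxia and erythropoietin genes passed in any of the 3 comparisons of pregnancy stages.

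**Figure D4:**
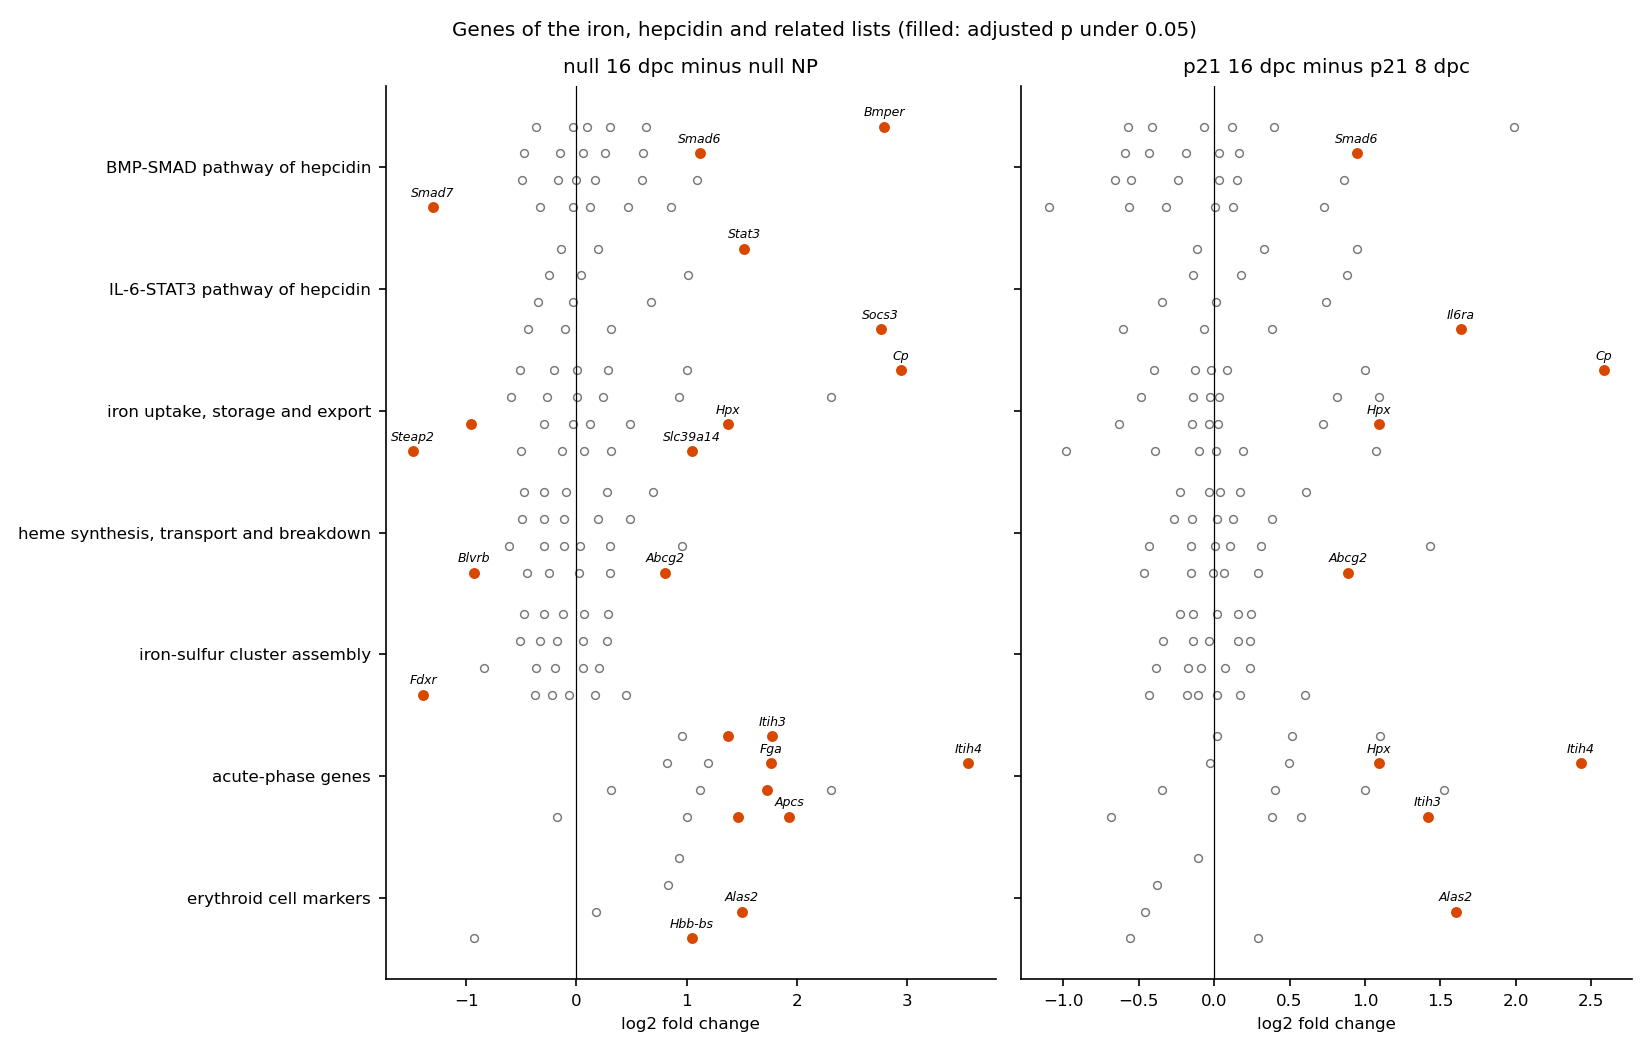
Log2 fold change of every tested gene of the iron, hepcidin and related lists, as points by list, filled where the adjusted p was under 0.05. Cp (2.95 at null 16 dpc against null NP) lies far to the right of the iron list, whose median was 0.0361.

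Tfrc is also abundant in immature red cells, so erythroid markers are given beside it. Of 6 tested erythroid markers 2 rose at null 16 dpc against null NP, Alas2 (1.50, adjusted p = 0.0135) and Hbb-bs (1.05, adjusted p = 0.0442). Alas2 was lost without null NP replicate 2 or 3 (adjusted p up to 0.0564) and Hbb-bs in 4 of 6 omissions of 1 library (up to 0.170), and both in edgeR with these groups alone. The median log2 difference of the 6 was 0.882. Alas2 also rose between p21 8 dpc and p21 16 dpc (1.60, adjusted p = 0.0133, lost in 2 of 15 alternatives), and none of the 6 passed between null 8 dpc and null 16 dpc. The summed level of 13 erythroid markers was 52.6 to 102 CPM at null NP, 92.5 to 105 CPM at null 8 dpc, 111 to 173 CPM at null 16 dpc, 118 to 203 CPM at p21 8 dpc and 127 to 170 CPM at p21 16 dpc. Rhag was at 0 in every library of all groups but null 8 dpc, and Gata1 in every library of null NP, null 8 dpc and p21 8 dpc. The part of erythroid cells in the level of Tfrc was not tested.

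Hepcidin and several iron genes are known to vary over the day, and the libraries differed in their clock genes. The mean log2 level of Ciart, Dbp, Nr1d1, Nr1d2, Per3 and Tef was subtracted from that of Clock, Npas2 and Arntl, whose levels peak in the opposite phase of the day. This clock difference was 0.391, -3.97 and -4.06 at null NP, 1.16, 1.28 and -1.04 at null 8 dpc and 1.82, -1.24 and 1.50 at null 16 dpc. It was 2.66, 2.27 and -2.88 at p21 8 dpc and -4.45, -4.33 and -2.58 at p21 16 dpc. Null NP overlapped the other null groups only through replicate 1, and p21 8 dpc overlapped p21 16 dpc only through replicate 3. Every p21 16 dpc library lay below every null 8 dpc and null 16 dpc library. Without the 5 libraries that stood apart, only null 8 dpc and null 16 dpc, of the groups compared, still overlapped. Null NP then held -3.97 and -4.06, null 8 dpc 1.16 and 1.28 and null 16 dpc 1.82 and -1.24. In the other comparisons of that fit, group and clock difference cannot be told apart. None of the 9 clock genes passed in any comparison (edgeR), and the part of the clock in the results was not tested.

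**Figure D5:**
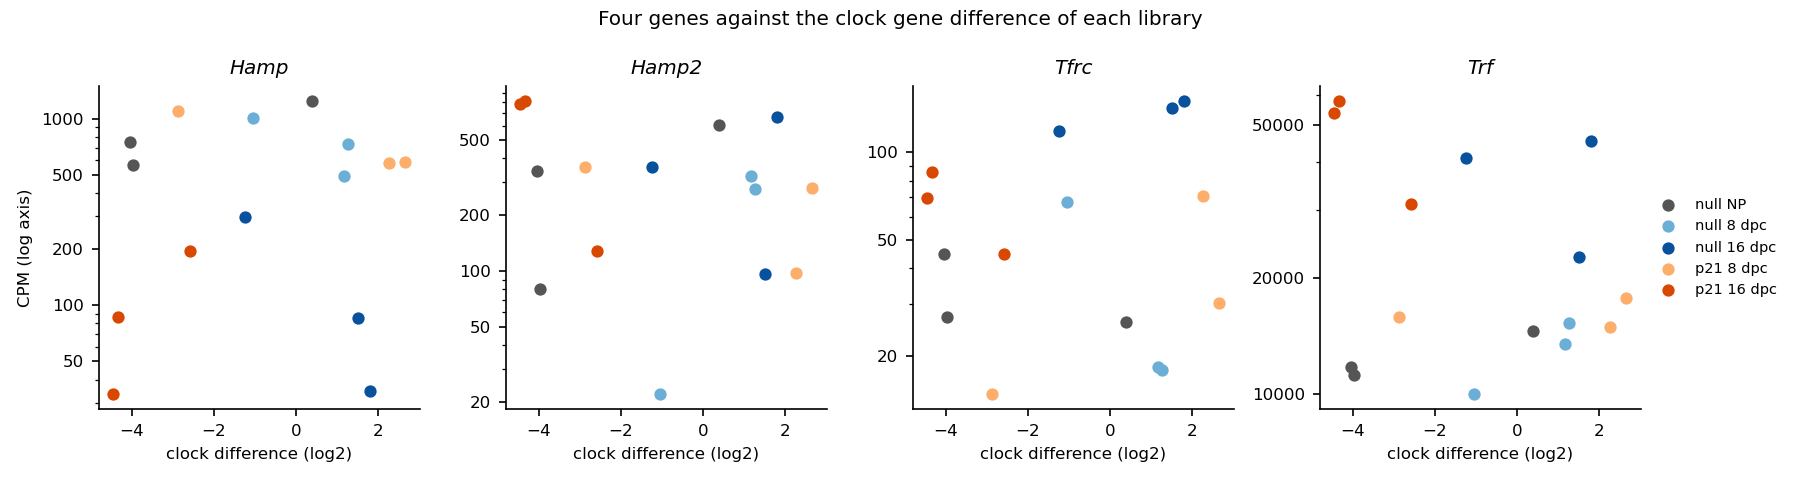
CPM (log axis) of 4 of the genes in each library against its clock difference (log2), coloured by group. The clock difference runs from -4.45 to 2.66, and the 16 dpc libraries of the p21 group lie at -4.45 to -2.58, against -1.24 to 1.82 for the null group.

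The genes whose log2 CPM followed that of Hamp most closely over the 15 libraries were Xrcc3 (Pearson r = 0.903), Slc17a1 (0.895), Vldlr (0.891), Slc17a2 (0.888) and Ildr2 (0.888). For Tfrc they were Fyttd1 (0.882), Igfbp1 (0.870), Sgk1 (0.869), Krr1 (0.868) and Tat (0.863). For Id1 they were Cdc37 (0.876), Ypel3 (0.860), Mapk1ip1 (0.853), Rab3ip (0.853) and Fkbp7 (0.847). Within the 10 genes the closest pairs were Hamp and Trf, which ran against each other (r = -0.854), and Tfr2 and Trf (0.824). Fth1 and Ftl1 correlated at 0.672, Hamp and Tfrc at -0.694, and Hamp and Hamp2 at -0.377. These correlations describe 15 libraries that share groups and depth, and carry no test.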

How the data were processed

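Poly(A)-selected, stranded RNA-seq libraries of whole liver were analysed. The deposited values are raw counts per gene. The authors obtained them with HTSeq 0.12.4 from reads that HISAT2 2.1.0 mapped uniquely to mm10 after trimming by cutadapt 1.14. The strand setting of the counting is not given in the sources used here. Samples were grouped by their labels. The columns of p21 16 dpc carry other numbers than the sample titles and are called libraries a, b and c. No pair of libraries within a group agreed within counting noise.

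From the counts, genes were kept by filterByExpr (at least 10 counts, 12172 genes) and tested in edgeR 4.0.16 (R 4.3.3) with TMM scaling, all 15 libraries in 1 quasi-likelihood model (residual degrees of freedom 10) and Benjamini-Hochberg adjustment. CPM are TMM-scaled counts per 1000000 counts of tested genes. log2 correlations used a pseudocount of 0.5 CPM. Levels between genes were divided by the length of the principal GENCODE transcript on GRCm38. The depth of 12280709 to 17615185 counts limits precision for genes near 1 CPM. The script was tested on data simulated for null 16 dpc against null NP. There, 20% of 2-fold changes and 89% of 4-fold changes passed. Alternatives used DESeq2 1.42.0, limma 3.58.1, other scalings and filters, a replicate block and omission of single libraries. The summed hepcidin counts and the fit without 5 libraries were chosen after seeing the data.

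The 10 genes and the lists (BMP-SMAD, interleukin-6-STAT3, iron, heme, iron-sulfur, NRF2, hypoxia, acute phase, clock and markers of erythroid, hepatocyte, endothelial, Kupffer, stellate, bile duct and leukocyte cells) were chosen with earlier results of these data known. Named beyond the 10 were, in each list and comparison, up to 4 passing genes of largest absolute log2 fold change, and the 5 genes best correlated with Hamp, Tfrc and Id1.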

Additional observations from a re-analysis of the deposited data

How the results depend on the processing

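Of 7 results of the 10 genes that passed, none changed sign over 117 alternative values, 82 of which stayed past the threshold and 35 did not. Of the others, 17 of 1080 alternative values passed and 106 changed sign, all of results within 0.729 (log2). With voom and sample weights 5 genes passed between null 16 dpc and null NP, 1 between null 8 dpc and null NP and 4 between p21 16 dpc and p21 8 dpc. Without the 5 libraries that stood apart, chosen after seeing the data and by construction with less spread, 1 passed between null 8 dpc and null NP. Between null 16 dpc and null 8 dpc 1 passed with at least 10 counts in every library, 0 in edgeR with these groups alone and 1 under the replicate block, which was fitted on the 12 libraries whose columns carry the titles' numbers. Samples of the same number correlated between -0.576 and 0.472 in their deviations from the group means, and samples of different numbers between -0.551 and 0.614. These ranges overlap, and with 3 libraries a group they cannot decide whether samples of 1 number share more than that number. The call of Tfrc from null NP was also lost under the block (2.13, adjusted p = 0.0690) and in the same 12 libraries without it (0.0563). Between p21 16 dpc and null 16 dpc 1 passed by DESeq2 with these groups alone. Leaving out 1 library at a time, between 1 and 2 genes passed for null 16 dpc against null NP, 0 and 2 against null 8 dpc and 0 and 2 for p21 16 dpc against p21 8 dpc, and 0 in the other comparisons.

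Signs turned for null 16 dpc against null NP in Hamp2 without null NP replicate 2 (-0.34) or null 16 dpc replicate 1 (-0.59), in Slc40a1 without null NP replicate 3 (0.071), null 16 dpc replicate 2 (0.072) or replicate 3 (0.11), and in Ftl1 without null NP replicate 1 (0.032) or the 5 libraries that stood apart (0.099). For p21 16 dpc against null 16 dpc Hamp turned without null 16 dpc replicate 2 (0.81) or p21 16 dpc library a (0.019) and with Hamp and Hamp2 added together (0.40), as did its interaction (0.79, 0.0025 and 0.33). Leaving out single libraries, these differences ran from -0.59 to 0.83 for Hamp2, -0.54 to 0.11 for Slc40a1, -0.31 to 0.032 for Ftl1 and, for Hamp, -1.22 to 0.81 between viruses at 16 dpc and -1.23 to 0.79 in the interaction. The cause was not tested.

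Upper quartile scaling moved the median log2 difference of all genes between null 16 dpc and null NP to -0.12 and gave 367 higher and 429 lower calls (46.1% higher, against 56.8%), and between null 16 dpc and null 8 dpc 35.2% higher (against 46.0%). The number of genes passing ranged from 373 to 1602 between null 16 dpc and null NP, 258 to 2113 between null 16 dpc and null 8 dpc, 159 to 1817 between p21 16 dpc and p21 8 dpc, 0 to 1850 between null 8 dpc and null NP, 3 to 207 and 0 to 105 between viruses at 16 and 8 dpc and 0 to 6 for the interaction. Of 27 named genes of other lists in null 16 dpc against null NP, 11 passed in every alternative and 15 were lost when some single library was left out.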

Other observations

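Transcripts of several plasma proteins of the acute phase rose in the same libraries in which Hamp fell, and a link was not tested. Of 15 tested acute-phase genes, 7 rose and none fell at null 16 dpc against null NP (median log2 difference 1.37), where 6.52% of all genes passed. Itih4, an inter-alpha-trypsin inhibitor heavy chain, rose by 3.56 (adjusted p = 6.64e-06, edgeR) from 1255 ± 169 to 14774 ± 5480 CPM (SD, n = 3), Itih3 by 1.78 (adjusted p = 0.000525) and Fga, the fibrinogen alpha chain, by 1.76 (adjusted p = 0.00300), each past the threshold in all 17 alternatives. Apcs, serum amyloid P, rose by 1.93 (adjusted p = 0.0198), a call lost in 3 of 6 omissions of 1 library (adjusted p up to 0.0923). Itih4 and Itih3 also rose between p21 8 dpc and p21 16 dpc (2.43, adjusted p = 0.000214, and 1.42, adjusted p = 0.00393).

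Among 12 hepatocyte markers 4 rose and 3 fell at null 16 dpc against null NP, with Alb at 2.01 (adjusted p = 0.000351), Apoa1 at 1.68 (adjusted p = 0.00974), Fgb at 1.47 (adjusted p = 0.00680) and Ttr at -1.41 (adjusted p = 0.0214, lost in 3 of 6 omissions of 1 library). Apoa1 was lost without null NP replicate 3 (adjusted p = 0.0505). The leukocyte markers S100a8 (3.99, adjusted p = 0.00184), S100a9 (3.77, adjusted p = 0.00931) and Itgam (2.29, adjusted p = 0.0215) rose, 3 of 8 tested, all at means under 7 CPM, while the other 5 had negative differences and the median of the 8 was -0.369. Itgam was lost in 4 of 6 omissions of 1 library and without the 5 libraries that stood apart (adjusted p = 0.0560). The stellate marker Lrat fell by 1.41 on the log2 scale (adjusted p = 0.0279), 1 of 12, in a list with 8 positive differences and a median of 0.0342, and was lost in 5 of 6 omissions of 1 library. In edgeR with null NP and null 16 dpc alone, the calls of Apcs, Ttr, S100a9 and Itgam were lost as well. In the same comparison, none of 12 endothelial, 12 Kupffer, 5 bile duct or 9 clock genes passed (edgeR).

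Between null 8 dpc and null 16 dpc, where 6.87% of all genes passed, 3 of 15 acute-phase genes rose, Itih4 (2.57, adjusted p = 9.39e-05), Itih3 (1.33, adjusted p = 0.00439) and Hpx. Saa2, a serum amyloid A gene, fell by 4.42 on the log2 scale (adjusted p = 0.0414) from 208 ± 337 to 9.73 ± 2.92 CPM. Its call was lost without null 8 dpc replicate 2 (adjusted p = 0.769) and in 8 of 16 alternatives in all. Over these the log2 difference ran from -4.98 to -0.44. The hepatocyte markers Apoa1 (2.39, adjusted p = 0.00119), Alb (2.23, adjusted p = 0.000124) and Ahsg (1.47, adjusted p = 0.000682), 3 of 12, rose, each past the threshold in all 17 alternatives, and so they did between p21 8 dpc and p21 16 dpc, where 3.32% of all genes passed (2.23, 1.33 and 1.62, with adjusted p = 0.00253, 0.00742 and 0.000428). The endothelial markers Pecam1 (1.16, adjusted p = 0.0318, lost in 6 of 17 alternatives) and Clec4g (0.80, adjusted p = 0.0206, lost in 4), 2 of 12, and the stellate marker Dcn (1.04, adjusted p = 0.0144, lost in 3), 1 of 12, rose between null 8 dpc and null 16 dpc. No Kupffer, bile duct or leukocyte marker passed in either of these comparisons, and no endothelial or stellate marker between the p21 groups (edgeR).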
